A study of Caenorhabditis elegans with 12 samples.

Results

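The 58 genes described here encode proteins that remove introns from *Caenorhabditis elegans* transcripts, or that were named with them. They were chosen by symbol alone, as every gene named *prp*, *snr*, *snrp*, *lsm*, *rsp*, *uaf*, *sftb*, *mog* or *rnp* followed by a number, from the 46761 genes of the deposited expression table. All 58 were among the 14199 genes that could be tested, those with a value of at least 1 FPKM (fragments mapped to a gene, scaled for its length and for the size of the library) in at least 3 of the 12 libraries. Each of 4 genotypes had 3 libraries. Beside the wild-type these were a *lin-29* mutant with allele n836, a *mab-10* mutant with allele tm2497, and a *ddx-23* mutant with allele n5705. RNA came from whole young adult hermaphrodites, and all 4 strains, the wild-type control included, carried the same *col-19::gfp* reporter (maIs105). LIN-29 is a zinc-finger transcription factor and MAB-10 its NAB-family cofactor, both acting in the larval-to-adult switch of the hypodermis. The n5705 strain came from a chemical mutagenesis screen and carries a pair of missense changes in DDX-23, and animals that lack *ddx-23* altogether die as embryos, so the viable strain used here is not a complete loss of the gene.

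The spliceosome is built on each intron from small nuclear ribonucleoproteins (snRNPs), each a small nuclear RNA with its proteins. A ring of Sm proteins sits on the U1, U2, U4 and U5 RNAs, and a related LSm ring sits on U6. U1 and U2 mark the ends of the intron, the U4/U6.U5 tri-snRNP joins them, and helicases together with the Prp19 complex then rearrange the assembly so that the intron is cut and released. DDX-23 corresponds to the human helicase DDX23 (yeast Prp28), which releases U1 from the start of the intron so that U6 can take its place. SR proteins bind exons and help to choose splice sites. In nematodes the same machinery also joins a short spliced leader to the front of many messages.

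The deposited values were log2(FPKM + 1), without read counts, so the sequencing depth behind each value is unknown. The library numbers in the labels were split here, between 3244 and 3248, into an earlier and a later run. The earlier run holds all 3 *ddx-23* libraries, wild-type replicates 1 and 2, *lin-29* replicate 1 and *mab-10* replicate 1. The later run holds the other 5. This boundary was set with the values in view, and the numbers have other gaps as well. The labels do not say what the numbers stand for. Per the study's methods, replicates of a genotype came from different populations of animals. Across genes, wild-type replicates 1 and 2 correlated at r = 0.991, and each with replicate 3 at 0.960 and 0.961. The *ddx-23* transcript itself was at 51.5 ± 1.19 FPKM in the wild-type and 69.1 ± 3.85 FPKM in *ddx-23* mutants (SD, n = 3 each). For *lin-29* the values were 3.05 ± 0.33 FPKM in the wild-type and 7.80 ± 1.36 FPKM in *lin-29* mutants, and for *mab-10* 4.06 ± 1.36 FPKM in the wild-type and 6.53 ± 1.26 FPKM in *mab-10* mutants (SD, n = 3 each). A level over a whole gene does not check a missense or partial allele, so these values do not test the labels.

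In wild-type adults the splicing genes were expressed well above most genes and fell into tiers by role. Their median was 116 FPKM, 57 of 58 were above 10 FPKM, a level that 50.9% of all tested genes passed, and 36 were above 100 FPKM. Genes for the 7 Sm proteins were the highest group, with a median of 494 FPKM and a range from 303 for *snr-7* (SmG) to 560 for *snr-2* (SmB). Genes for the 8 SR proteins had a median of 233 FPKM and ran from 109 for *rsp-7* to 494 for *rsp-3*, the SRSF1 homologue. The LSm genes lay between 113.3 FPKM for *lsm-4* and 213 FPKM for *lsm-8*, which defines the nuclear ring on U6, around a median of 167 FPKM.

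The U1 and U2, tri-snRNP and catalytic groups had lower medians. The 14 genes of the U1 and U2 group, which also holds *uaf-1*, *uaf-2* and *rnp-6*, had a median of 84.4 FPKM. They ran from 41.2 for *prp-21* (SF3A1) to 183 for *sftb-6*, the branch-point protein p14. The U1 gene *snrp-3*, at 140 FPKM, was in no role group. The 8 tri-snRNP genes had a median of 58.0 FPKM, and the 8 genes of the Prp19 complex and the catalytic steps a median of 44.9 FPKM, within which *prp-19* itself reached 138 FPKM. Of the remaining *rnp* genes, *rnp-4*, the exon junction protein Y14, was the highest at 309 FPKM. The exception at the bottom was *rnp-9* at 1.43 FPKM, the one gene of the 58 below 1 FPKM in some libraries. FPKM is a level per length, so these comparisons between genes hold on that scale.

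**Figure D1:**
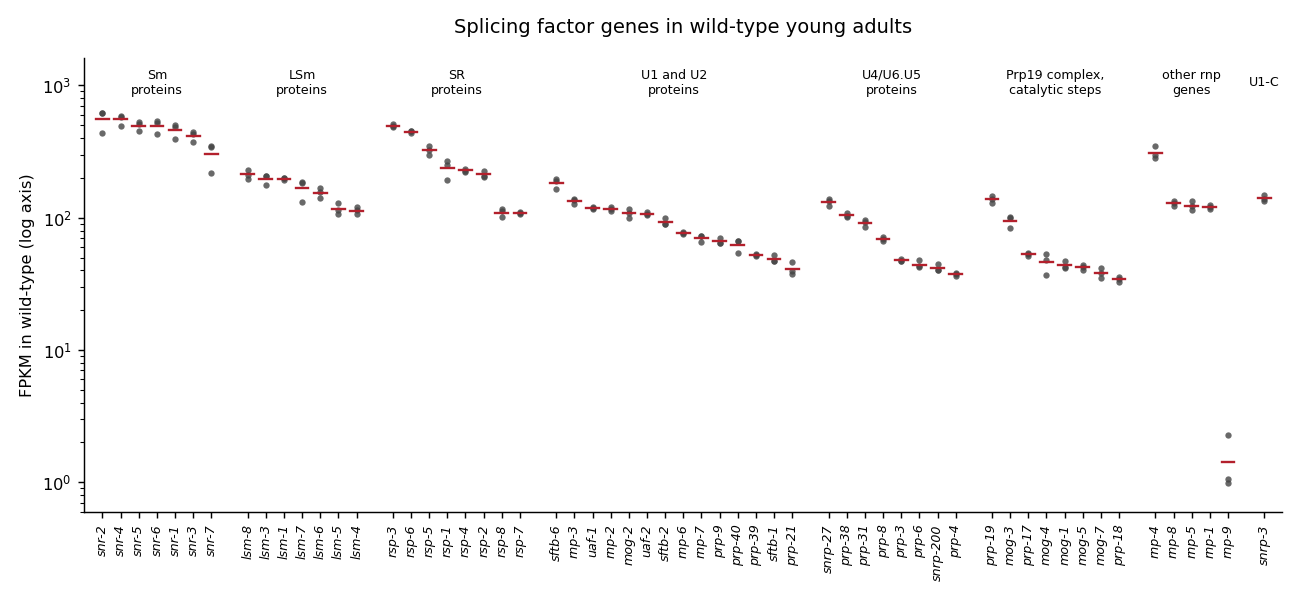
FPKM of each of the 58 genes in the 3 wild-type libraries (points, log axis) with their mean (red line), grouped by role. Sm genes sit highest, with a median of 494 FPKM, tri-snRNP and catalytic genes lie around 58.0 and 44.9 FPKM, and *rnp-9* stands alone at 1.43 FPKM.

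The genes were also steady between libraries. The median residual SD, the spread of a gene within its genotype on the log2 scale, was 0.109 for the 58 genes, 0.261 for all tested genes and 0.135 for the 1756 tested genes of similar level. It was lowest for the U1 and U2 group, at 0.082, and highest for the Sm group, at 0.159. The 58 genes lay on all 6 chromosomes, with 10 on I, 15 on II, 15 on III, 10 on IV, 7 on V and 1 on X (Ensembl annotation of WBcel235). A single annotated transcript was given for 37 of them. Annotated genes overlapped 11 on the same strand and 19 on the opposite strand, and whether fragments were counted by strand is not stated in the sources used here, so values of overlapping genes are uncertain to that extent.

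A few splicing genes differed in mRNA level between *ddx-23* mutants and the wild-type, at shares near those of all tested genes. In *ddx-23* mutants 3 of the 58 genes rose (5.17%; 7.17% of all tested genes did) and 2 fell (3.45%; 1.46% of all tested genes did), at an adjusted p under 0.05 in limma. The genes that fell were *prp-38* and *snrp-3*, and those that rose were *rnp-6*, *mog-5* and *uaf-2*. None of these changed by more than 2-fold, while 5.1% of all tested genes passed both the threshold and that size in either direction. All 3 *ddx-23* libraries lay above all 3 wild-type libraries for 10 of the 58 genes (24.1% of tested genes) and below them for 8 (9.35%). Set against all 9 other libraries, the *ddx-23* libraries lay above for 7 genes (6.18% of tested genes) and below for 1, *prp-38* (4.45%). The median difference of the 58 genes from the wild-type was 0.056 on the log2 scale. Over all tested genes the median difference from the wild-type was 0.19 for *lin-29* mutants, 0.14 for *mab-10* mutants and 0.094 for *ddx-23* mutants, so relative to this shift the median splicing gene was at -0.30, -0.14 and -0.04. Scaling each library by its median ratio removed that shift and left 0 genes higher (861 of all tested genes) and 2 lower (425) in *ddx-23* mutants. With wild-type replicate 1 or 2 left out, the counts were 1 higher and 1 lower, and likewise with *ddx-23* replicate 2 left out. With *ddx-23* replicate 3 left out 1 was higher, and with *ddx-23* replicate 1 left out 1 was lower. Leaving out wild-type replicate 3 gave 4 lower. Counts over all tested genes moved as well, from 1018 higher and 207 lower with all libraries. They were 631 higher and 80 lower without wild-type replicate 1, and 515 and 76 without wild-type replicate 2. Leaving out *ddx-23* replicate 2 gave 531 higher and 69 lower. Without *ddx-23* replicate 3, 614 were higher, and without wild-type replicate 3, 380 were lower. Fewer were also lower without *ddx-23* replicate 1. In whole animals, fewer cells of a type and less RNA per cell cannot be told apart.

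**Figure D2:**
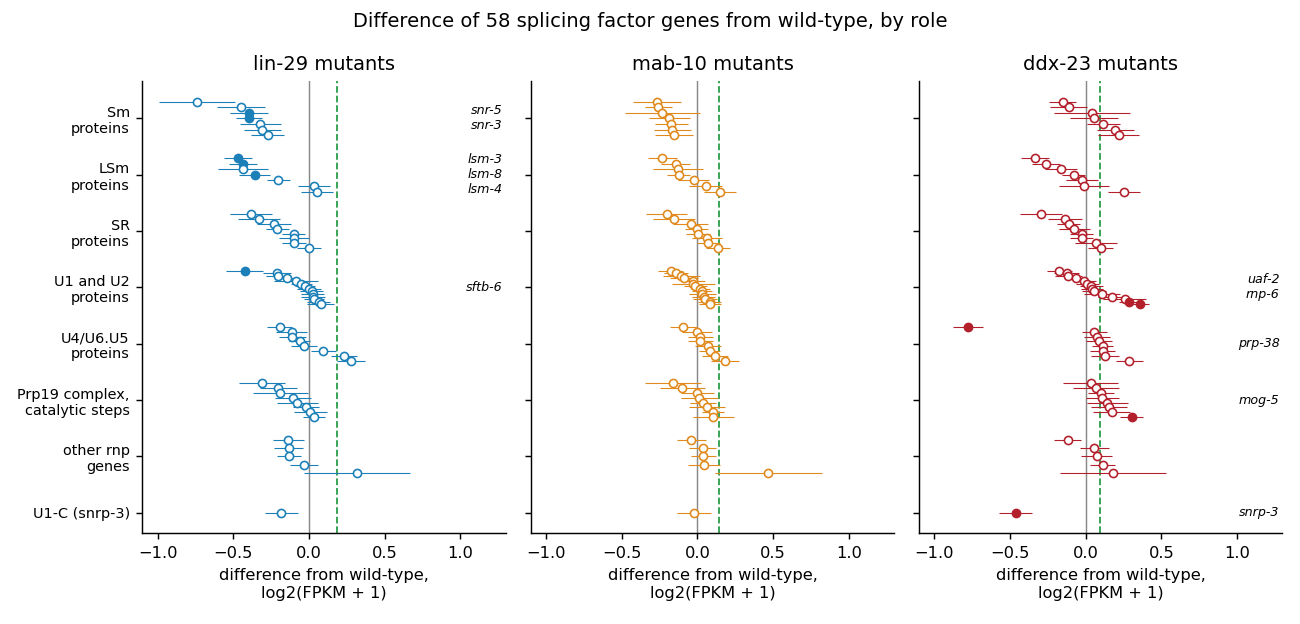
Difference from the wild-type on the log2(FPKM + 1) scale (x axis) for the 58 genes by role (y axis) in each mutant, with its SE from limma. Filled points passed an adjusted p of 0.05 and are named at the right, and the dashed line is the median of all tested genes. In *ddx-23* mutants *prp-38* lies alone at -0.78.

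The largest change was in *prp-38* (chromosome V, 10804721 to 10806034, minus strand), whose yeast and human counterparts join the spliceosome with the tri-snRNP and are needed for its activation. Its log2(FPKM + 1) values were 6.69, 6.78 and 6.68 in the wild-type and 5.92, 5.92 and 5.97 in *ddx-23* mutants. The *lin-29* libraries gave 6.84, 6.49 and 6.47, and the *mab-10* libraries 6.83, 6.62 and 6.70. All 3 *ddx-23* libraries therefore lay below the other 9, with a gap to the lowest of them wider than the spread within any genotype. In FPKM the mean went from 104.2 ± 3.93 to 60.3 ± 1.25 (SD, n = 3 each), a level 0.579 times that of the wild-type. The fitted difference was -0.78 ± 0.10 (SE), with an adjusted p of 0.00086 in limma, and *prp-38* ranked at place 158 of all tested genes by p. Relative to the shift of all genes the difference was -0.87. It passed the threshold under all 22 alternatives run, with differences from -0.90 to -0.75 and adjusted p-values from 3.5e-05 to 0.0067.

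The neighbouring gene went the other way. The gene *plrg-1*, which encodes a Prp19-complex protein, ends 106 bases upstream of *prp-38* on the same strand. Its values were 6.28, 6.32 and 6.40 in the wild-type and 6.70, 6.61 and 6.61 in *ddx-23* mutants, without overlap. The *lin-29* libraries were at 6.55, 6.34 and 6.36, those of *mab-10* at 6.31, 6.46 and 6.42. The rise of 0.31 ± 0.08 (SE) had an adjusted p of 0.033 in limma and was lost under 10 of 22 alternatives. With any *ddx-23* library, *mab-10* replicate 3, or either of wild-type replicates 1 and 2 left out, adjusted p-values were 0.051 to 0.13. Human PRPF38A enters the spliceosome with SNU23 and SMU1. Their worm genes did not pass the test, at 0.11 ± 0.18 for *snu-23* and -0.03 ± 0.13 for *smu-1* (SE), nor did *smu-2*, at 0.12 ± 0.11. These genes and *plrg-1* were singled out after their values were seen.

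**Figure D3:**
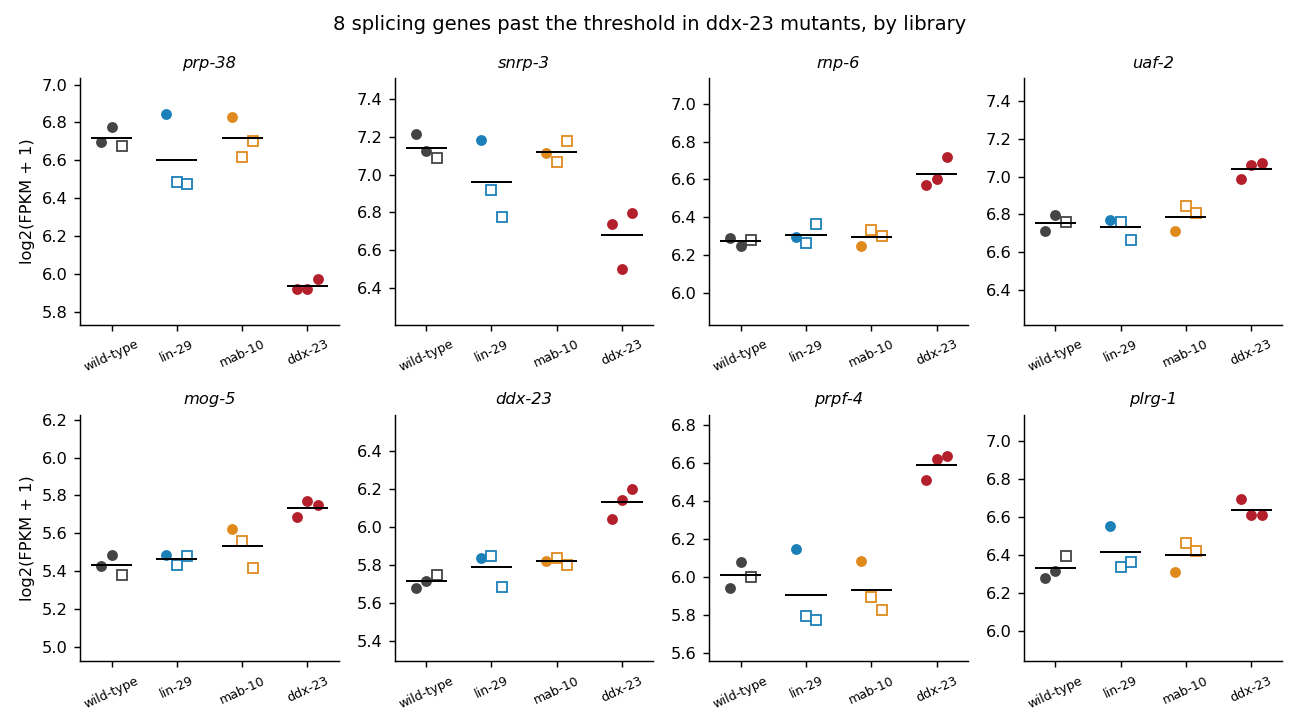
log2(FPKM + 1) in each library for 5 of the 58 genes and for *ddx-23*, *prpf-4* and *plrg-1*. Filled circles are libraries of the earlier run of numbers, open squares those of the later run, black lines genotype means, and every panel spans 1.3 units. The *ddx-23* libraries lie below all others for *prp-38* and above all others for *rnp-6*, *uaf-2*, *mog-5*, *ddx-23*, *prpf-4* and *plrg-1*.

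Among proteins that mark intron ends, 1 gene of U1 fell and 2 genes that act at the 3′ end rose. The gene *snrp-3* (chromosome IV, 8686756 to 8687810, minus strand) encodes U1-C, the U1 protein that steadies pairing with the start of the intron. Its values were 7.22, 7.13 and 7.09 in the wild-type and 6.74, 6.50 and 6.80 in *ddx-23* mutants. These groups did not overlap, but *lin-29* replicate 3, at 6.78, lay within the *ddx-23* range. The mean went from 140 ± 6.54 to 102 ± 10.9 FPKM (SD, n = 3 each), and the difference was -0.46 ± 0.11 (SE; adjusted p = 0.025 in limma). The adjusted p was 0.095 without wild-type replicate 1, 0.079 without wild-type replicate 2, 0.061 without *ddx-23* replicate 1 and 0.11 without *ddx-23* replicate 2. The other U1 genes did not pass. They stood at 0.04 ± 0.07 for *rnp-7* (U1-70K), 0.17 ± 0.09 for *rnp-2* (U1-A), 0.26 ± 0.14 for *prp-40* and 0.01 ± 0.08 for *prp-39* (SE), the latter pair named after yeast U1 proteins.

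The gene *rnp-6* (chromosome I, 3539553 to 3546910, minus strand) is the homologue of human PUF60, which binds the pyrimidine tract before the 3′ splice site together with U2AF. Its values were 6.29, 6.25 and 6.28 in the wild-type and 6.57, 6.60 and 6.72 in *ddx-23* mutants. They lay between 6.25 and 6.37 in the 6 *lin-29* and *mab-10* libraries, so only *ddx-23* mutants stood apart. The rise was 0.36 ± 0.06 (SE), from 76.4 ± 1.25 to 98.2 ± 5.38 FPKM (SD, n = 3 each), with an adjusted p of 0.0066 in limma. Under median-ratio scaling it was 0.24 with an adjusted p of 0.084, and under the 21 other alternatives it passed, over a range of adjusted p from 0.0019 to 0.084 in all. An annotated gene on the opposite strand, *Y47G6A.5*, overlaps *rnp-6*.

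U2AF binds the 3′ end of the intron as a pair, and its genes did not move alike. The small subunit gene *uaf-2* (chromosome IV, 17116771 to 17118767, minus strand) had values of 6.71, 6.79 and 6.76 in the wild-type and 6.99, 7.06 and 7.07 in *ddx-23* mutants. The rise was 0.28 ± 0.07 (SE; adjusted p = 0.022 in limma), to 1.22 times the wild-type FPKM. It was 0.16 under median-ratio scaling, and adjusted p-values were 0.063 to 0.092 without wild-type replicate 1 or 2 or *ddx-23* replicate 2 or 3. The call was lost under 7 of 22 alternatives, with adjusted p-values in limma of up to 0.21. For the large subunit gene *uaf-1* the values were 6.87, 6.92 and 6.91 in the wild-type and 6.77, 6.70 and 6.71 in *ddx-23* mutants. These too did not overlap, but the difference of -0.17 ± 0.08 (SE) had an adjusted p of 0.23 in limma. Annotated genes overlap *uaf-2* on both strands and *uaf-1* on its own strand. Of the U2 particle proper, none of *sftb-1* (SF3B1), *sftb-2* (SF3B2), *sftb-6*, *prp-9* (SF3A3), *prp-21*, *rnp-3* (U2-B″) and *mog-2* (U2-A′) passed, with differences from -0.13 for *mog-2* to 0.11 for *sftb-6*.

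Among the factors that act after assembly, *mog-5*, the homologue of the PRP22 helicase that releases spliced mRNA, was the only gene of 8 to pass. The gene lies on chromosome II (5399538 to 5405810, plus strand). Its values were 5.43, 5.49 and 5.38 in the wild-type and 5.69, 5.77 and 5.75 in *ddx-23* mutants. *mab-10* replicate 1, at 5.62, was the nearest of the other libraries. The rise was 0.30 ± 0.07 (SE; adjusted p = 0.027 in limma), to 1.24 times the wild-type FPKM. It was 0.18 under median-ratio scaling, and adjusted p-values were 0.064 to 0.12 when wild-type replicate 1 or 2 or any *ddx-23* library was left out. The call was lost under 8 of 22 alternatives, with adjusted p-values in limma of up to 0.31. The other helicases of these steps were at 0.03 ± 0.18 for *mog-4* (PRP2) and 0.10 ± 0.09 for *mog-1* (PRP16), and *prp-19*, the ubiquitin ligase that names its complex, at 0.11 ± 0.11 (SE). All 8 differences of this group were above 0, with a median of 0.13 against 0.094 for all tested genes. An annotated gene on the opposite strand, *clec-141*, overlaps *mog-5*.

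Among genes of the tri-snRNP, the particle in which DDX-23 acts, *prp-38* was the only one of 8 to pass. The scaffold gene *prp-8* was at 6.07, 6.17 and 6.12 in the wild-type and 6.14, 6.18 and 6.30 in *ddx-23* mutants, a difference of 0.09 ± 0.09 (SE). The Brr2 helicase gene *snrp-200* was at 5.37, 5.38 and 5.51 in the wild-type and 5.43, 5.58 and 5.62 in *ddx-23* mutants, a difference of 0.13 ± 0.09 (SE). Both pairs of groups overlapped. The other tri-snRNP differences were 0.11 ± 0.08 for *prp-3*, 0.11 ± 0.07 for *prp-4*, 0.07 ± 0.09 for *prp-6* and 0.06 ± 0.08 for *snrp-27* (SE), with adjusted p-values from 0.38 to 0.75 for all 6 in limma. Among these 8, the largest rise without a call was that of *prp-31*, a U4/U6 protein gene. Its values were 6.60, 6.55 and 6.43 in the wild-type and 6.74, 6.81 and 6.89 in *ddx-23* mutants. Its *ddx-23* libraries lay above the other 9, and the difference was 0.29 ± 0.09 (SE; adjusted p = 0.075 in limma). With the run of library numbers in the model it was 0.23 with an adjusted p of 0.024. It passed under 3 of the 22 alternatives and not under 19. Differences ran from 0.17 to 0.33 and adjusted p-values in limma from 0.024 to 0.46.

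Genes for the rings and for exon-binding proteins gave no calls in *ddx-23* mutants. The 7 Sm genes ran from -0.15 for *snr-3* (SmD1) to 0.22 for *snr-6* (SmE), with a median of 0.056. The 7 LSm genes ran from -0.33 for *lsm-3* to 0.26 for *lsm-5*, with a median of -0.08, and the 8 SR genes from -0.30 for *rsp-1* to 0.10 for *rsp-2*, with a median of -0.05. The closest to a call was *lsm-3*, with 7.69, 7.70 and 7.48 in the wild-type and 7.38, 7.23 and 7.26 in *ddx-23* mutants (-0.33 ± 0.09 SE; adjusted p = 0.051 in limma). The gene *mdt-9* overlaps *lsm-3* on the same strand. Within the earlier run of library numbers alone, where wild-type replicate 3 is left out, the *ddx-23* counts over the 58 genes were 4 higher and 8 lower. Over all 14199 tested genes they were 3826 higher and 989 lower, against 1018 and 207 with all libraries. Of the 58, the added genes were *prp-31* among the higher and *lsm-3*, *lsm-8*, *mog-2*, *rsp-1*, *snr-3* and *uaf-1* among the lower.

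Other genes of the pathway, outside the symbols of the 58, were described from 4 lists holding 88 tested genes, of which 5 rose in *ddx-23* mutants (5.68%; 7.17% of all tested genes did) and 1 fell (1.14%; 1.46% of all tested genes did). The lists were other spliceosome proteins (3 of 38 rose), alternative splicing regulators (0 of 22 rose and 1 fell), *trans*-splicing and snRNP assembly (1 of 16 rose) and the exon junction with nonsense-mediated decay (1 of 12 rose). The *ddx-23* transcript itself rose, from 5.68, 5.72 and 5.75 in the wild-type to 6.04, 6.15 and 6.20 in *ddx-23* mutants (0.42 ± 0.07 SE; adjusted p = 0.0043 in limma). All other libraries lay between 5.68 and 5.85. The largest change among other spliceosome proteins was that of *prpf-4*, the homologue of a kinase that phosphorylates tri-snRNP proteins in human cells. Its values lay between 5.94 and 6.08 in the wild-type and were 6.51, 6.63 and 6.64 in *ddx-23* mutants. The rise of 0.58 ± 0.11 (SE; adjusted p = 0.0074 in limma) was 0.46 with an adjusted p of 0.053 under median-ratio scaling.

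The remaining rises in these lists lay at the edges of the pathway. The gene *snpc-1.3*, for a subunit of the complex that promotes transcription of small nuclear RNA genes and piRNAs, was barely expressed. It was at 0.58 FPKM in the wild-type and 1.77 FPKM in *ddx-23* mutants. Its rise of 0.81 ± 0.21 (SE; adjusted p = 0.033 in limma) was lost, with adjusted p-values from 0.082 to 0.12, without any 1 of wild-type replicates 1 and 2 and the *ddx-23* libraries. The cap-binding gene *ncbp-2*, named after its values were seen, rose by 0.32 ± 0.08 (SE; adjusted p = 0.034 in limma), from 127 to 158 FPKM. The 10 markers of body wall muscle summed to 3134 to 3822 FPKM in the wild-type and 5130 to 5276 FPKM in *ddx-23* mutants, and 4 of them rose. The 22 sperm markers summed to 591 to 870 FPKM in the wild-type and 782 to 1525 FPKM in *ddx-23* mutants, and 1 of the 21 tested rose. No marker was at 0 in every library, and the part of these shifts in the splicing genes was not tested.

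In *lin-29* mutants the splicing genes were lower where they changed. None of the 58 rose, while 16.3% of all tested genes did, and 6 fell (10.3%; 2.73% of all tested genes did). These were *lsm-3* (-0.47), *lsm-8* (-0.44), *sftb-6* (-0.43), *snr-3* (-0.40), *snr-5* (-0.40; SmF) and *lsm-4* (-0.36), with adjusted p-values from 0.0054 to 0.046 in limma. For *lsm-8* the values were 7.86, 7.74 and 7.61 in the wild-type and 7.40, 7.35 and 7.15 in *lin-29* mutants, without overlap. For *snr-3* they were 8.80, 8.74 and 8.54 against 8.39, 8.24 and 8.27, again without overlap. All 7 Sm genes and 5 of 7 LSm genes had negative differences, with medians of -0.40 and -0.36. At the other end were *snrp-200* (0.28 ± 0.09 SE; adjusted p = 0.059 in limma) and *prp-6* (0.23 ± 0.09 SE; adjusted p = 0.083 in limma). With *lin-29* replicate 1 or wild-type replicate 3 left out, these were the 2 genes called higher, and with *mab-10* replicate 1 left out *snrp-200* was. Over all tested genes 3207, 3605 and 2732 were higher in these fits, in that order, against 2320 with all libraries.

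The number of calls in *lin-29* mutants changed with single libraries and with scaling. With wild-type replicate 1 left out, 2 genes were lower. Leaving out wild-type replicate 2 gave 3, *lin-29* replicate 2 also 3, wild-type replicate 3 gave 14 and *lin-29* replicate 1 gave 20. Median-ratio scaling gave 21 lower genes and quantile normalization 20. Lower counts over all 14199 tested genes moved as well, from 388 in the main fit to 1103 and 1948 under these scalings. They were 180, 189 and 656 without wild-type replicates 1, 2 and 3, and 1157 and 201 without *lin-29* replicates 1 and 2. The Sm genes differed between the runs of library numbers as well as between genotypes. Summed over the 7 genes, they gave 3541, 3514 and 2796 FPKM in wild-type replicates 1 to 3, 2834, 2440 and 2251 FPKM in *lin-29*, 3136, 2617 and 2776 FPKM in *mab-10*, and 3626, 3306 and 3343 FPKM in *ddx-23* libraries. In each of the 3 genotypes with libraries in both runs, every one of the 7 Sm genes averaged lower in the later run. So did 7 of 8 genes of the Prp19 complex and catalytic steps. The boundary between the runs was set with the values in view, so this does not test an effect of the library numbers. Over the 58 genes, 31 averaged lower in the later run in all 3 genotypes and 6 averaged higher. The same count was not made over all tested genes, so it is not known whether this is particular to splicing genes. A model with a term for the run called 2 genes higher (2874 of all tested genes) and 9 lower (546) for *lin-29*. The earlier run holds 1 *lin-29* library and the later run 1 wild-type library. Calls for *lin-29* within either run alone would rest on a lone library, so they are not counted here.

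Markers of other cell types moved with *lin-29* too. Summed over 19 oocyte and embryo markers, levels were 9099 to 9612 FPKM in the wild-type and 7197 to 8710 FPKM in *lin-29* mutants, and 2 of the 19 fell. The 17 germline markers summed to 3139 to 3530 FPKM in the wild-type and 2650 to 3276 FPKM in *lin-29* mutants, with none called. The 22 sperm markers summed to 591 to 870 FPKM in the wild-type and 1023 to 1411 FPKM in *lin-29* mutants, and 8 of the 21 tested rose. Intestine markers summed to 19122 to 20389 FPKM in the wild-type and 14286 to 15277 FPKM in *lin-29* mutants, and of 10 genes 5 rose and 3 fell. Of 9 tested hypodermis markers 6 rose and 1 fell, and of 10 body wall muscle markers 3 rose. The part of all these markers in the lower splicing genes was not tested.

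**Figure D4:**
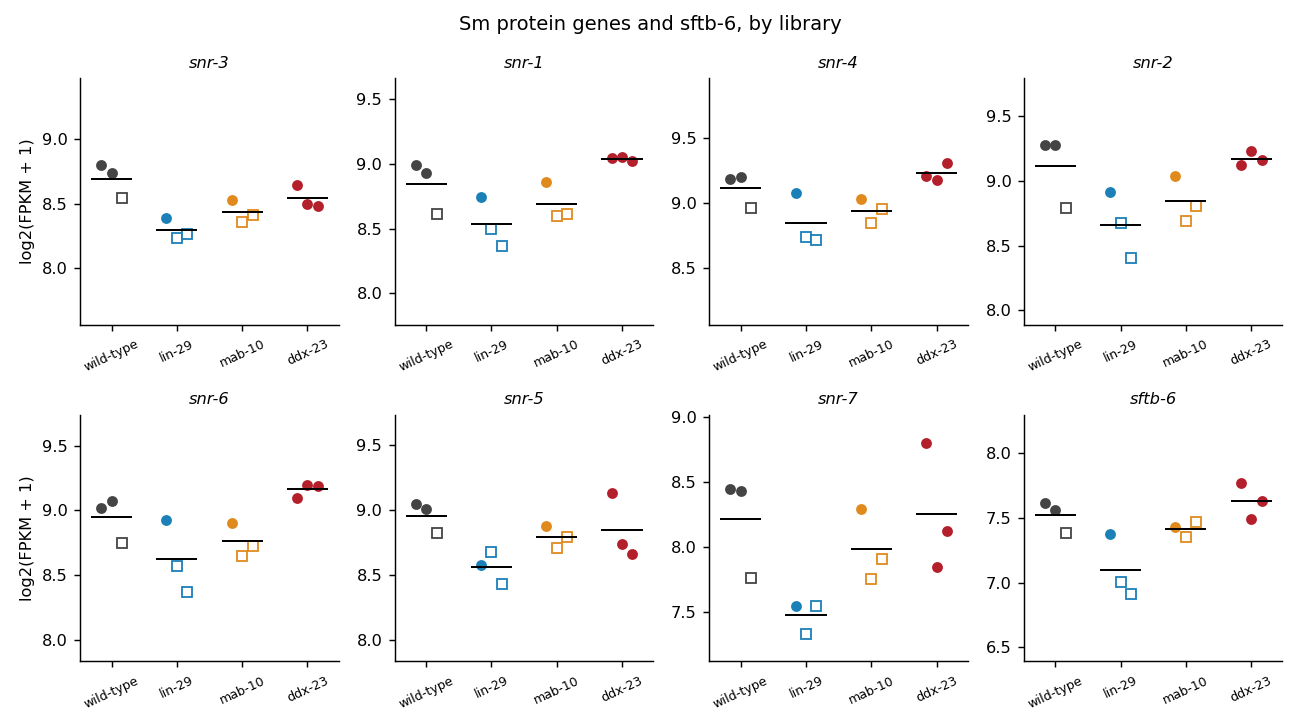
log2(FPKM + 1) of the 7 Sm genes and *sftb-6* in each library. Filled circles are libraries of the earlier run of numbers, open squares those of the later run, black lines genotype means, and every panel spans 1.9 units. Within the wild-type, *lin-29* and *mab-10* the open squares average below the filled circles for all 7 Sm genes, and the *ddx-23* libraries are all of the earlier run.

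In *mab-10* mutants none of the 58 genes passed in limma, against 1.04% of all tested genes higher and 0.232% lower. At an unadjusted p under 0.05 there were 2. With wild-type replicate 3 left out, 1 was lower, *snr-3*, and of all tested genes 370 were, against 33 with all libraries. Differences ran from -0.27 for *snr-2* to 0.47 for the weakly expressed *rnp-9*, around a median of -0.00097. The 7 Sm genes were again all negative, with a median of -0.18, and 2 of the 3 *mab-10* libraries belong to the later run. The genes called in *ddx-23* mutants were near the wild-type here, within 0.01 for *prp-38*, -0.02 ± 0.11 for *snrp-3*, 0.02 ± 0.06 for *rnp-6*, 0.03 ± 0.07 for *uaf-2* and 0.10 ± 0.07 for *mog-5* (SE). In *lin-29* mutants the same genes were at -0.12, -0.18, 0.03, -0.02 and 0.03, with SEs of 0.10, 0.11, 0.06, 0.07 and 0.07. The 3 comparisons with the wild-type share its libraries.

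The *ddx-23* mutants were also tested directly against the other mutants. These tests reuse the same 3 *ddx-23* libraries, all of the earlier run, while 2 of the 3 *mab-10* libraries belong to the later run. They therefore cannot show that a difference belongs to the helicase mutant. Against *mab-10* mutants 3 of the 58 genes were higher (4.89% of tested genes were) and 2 were lower (3.19%). The lower genes were *prp-38*, at -0.78 ± 0.10, and *snrp-3*, at -0.44 ± 0.11. The higher ones were *prp-31*, at 0.38 ± 0.09, *rnp-6*, at 0.34 ± 0.06, and *uaf-2*, at 0.25 ± 0.07 (SE), and all 5 had adjusted p-values from 0.0013 to 0.041 in limma. Leaving out *mab-10* replicate 3 or *ddx-23* replicate 3 took the higher count to 0, *mab-10* replicate 2, *ddx-23* replicate 1 or *ddx-23* replicate 2 to 1, and *lin-29* replicate 1 to 6. The lower count dropped to 1 when any *ddx-23* library was left out, and likewise for *mab-10* replicates 2 and 3 and for wild-type replicate 2. Counts over all tested genes moved as well, from 695 higher and 453 lower with all libraries. Without *ddx-23* replicates 1, 2 and 3, 306, 288 and 443 were higher and 141, 96 and 145 lower. Without *mab-10* replicates 2 and 3, 446 and 325 were higher and 156 and 89 lower. Without *lin-29* replicate 1, 865 were higher, and without wild-type replicate 2, 352 were lower.

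Against *lin-29* mutants 12 of the 58 were higher (6.99% of tested genes) and 1, *prp-38*, was lower (14.2%), at -0.66 ± 0.10 (SE; adjusted p = 0.0011 in limma). The higher genes included *rnp-6* (0.32 ± 0.06), *uaf-2* (0.31 ± 0.07) and *mog-5* (0.27 ± 0.07 SE), and also *prp-31* (0.40 ± 0.09) and *rnp-2* (0.38 ± 0.09 SE). The rest were *sftb-6*, *rsp-5* and 5 Sm genes, *snr-1* (SmD3), *snr-2*, *snr-4* (SmD2), *snr-6* and *snr-7*, at 0.39 to 0.78, and of these *sftb-6* had also fallen in *lin-29* mutants against the wild-type. Of the 3 *lin-29* libraries 2 belong to the later run, and of the *ddx-23* libraries none. With the run in the model the count was 7 higher (1403 of all tested genes) and 2 lower (1766). Within the earlier run *lin-29* has 1 library, so calls there are not counted. The higher count was 20, 4 and 5 without *lin-29* replicates 1, 2 and 3. It was 6, 7 and 6 without *ddx-23* replicates 1, 2 and 3. Over all tested genes the higher count moved as well, from 992 in the main fit. It was 1962, 595 and 555 without *lin-29* replicates 1, 2 and 3. For *ddx-23* replicates 1, 2 and 3 left out it was 541, 547 and 543. Of the 58, 2 were lower without *lin-29* replicate 2, and of all tested genes 1207, against 2020 in the main fit. Of the genes called against the wild-type in *ddx-23* mutants, *prp-38* was lower and *rnp-6* and *uaf-2* were higher than in both other mutants. Against *mab-10* mutants the call was lost under 11 of 22 alternatives for *uaf-2*, 2 for *rnp-6* and 0 for *prp-38*.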

How the data were processed

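RNA of whole young adult hermaphrodites was sequenced from 12 libraries, 3 per genotype, and genotypes were taken from the sample labels. The authors aligned reads with STAR 2.5.3a and estimated gene levels with RSEM 1.3.0 on the WS258 annotation of WBcel235, and deposited log2(FPKM + 1) values. FPKM used here was derived from those deposited log2 values. Because the table holds no counts, genes were tested with limma 3.58.1 (R 4.3.3, trend and robust options) on the deposited log2 values, in 1 model over the 4 genotypes with 8 residual degrees of freedom. The study's own tests on counts were not repeated. Genes had to reach 1 FPKM in 3 or more libraries, and p-values were adjusted by the Benjamini-Hochberg method over all 14199 genes tested, with a threshold of 0.05. A difference on this scale understates the change of low genes. The procedure was tested on simulated data.

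Symbols came from the reference gene table, which named 43780 of the 46761 identifiers. Gene positions, transcripts and overlaps came from the Ensembl annotation of WBcel235, whose release is later than the one the authors used. The members, role lists, pathway lists and markers were chosen with earlier results of these data known. Named genes were, per mutant, up to 10 of the largest and 10 of the lowest past the threshold, genes past it in at least 2 mutants, 8 tri-snRNP genes, and, from the pathway lists, *ddx-23* with the 3 largest and 3 lowest past it in *ddx-23* mutants. The name and values of the 1 gene of these lists that fell are not reported here. The alternatives were median-ratio scaling, quantile normalization, a pseudocount of 0.1, other filters, limma without its options, only the 2 genotypes compared, a replicate block, the run of library numbers, and leaving out each replicate.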

Additional observations from a re-analysis of the deposited data

How the results depend on the processing

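Over the counts and medians of the 58 genes, 222 values under other settings stayed near the reported ones, 21 were stronger, 40 weaker and 9 moved. Counts over all tested genes changed with the settings too. They are given in brackets after the count of the 58 for the same comparison and direction. Median-ratio scaling gave 21 lower genes in *lin-29* mutants (1103), 0 higher in *ddx-23* mutants (861) and 1 lower in *ddx-23* against *mab-10* mutants (447). Its medians were -0.30 for *lin-29*, -0.16 for *mab-10* and -0.064 for *ddx-23*. Quantile normalization gave 20 lower in *lin-29* mutants (1948), and 1 higher (693) and 4 lower (655) in *ddx-23* mutants. Its medians were -0.24, -0.085 and -0.048. Limma with neither option gave 3 lower in *lin-29* mutants (332), 1 higher in *ddx-23* mutants (1009) and 7 higher in *ddx-23* against *lin-29* (903). It gave 1 higher (720) and 1 lower (417) in *ddx-23* against *mab-10* mutants. With only the 2 genotypes compared, 1 was lower in *lin-29* mutants (166) and 5 were higher in *ddx-23* against *mab-10* mutants (839). The run of library numbers in the model gave 2 higher in *lin-29* mutants (2874), and 6 lower in *ddx-23* mutants (645) with a median of 0.0053. It gave 7 higher (1403) and 2 lower (1766) in *ddx-23* against *lin-29* mutants. The earlier run alone gave 8 lower in *ddx-23* mutants (989) and a median of 0.011 in *lin-29* mutants. That run has 1 *lin-29* and 1 *mab-10* library and the later run 1 wild-type library. Calls within a run that rest on such a lone library are not counted. In none of the 5 comparisons made were all 3 correlations between deviations of same-numbered libraries over 0.1, so the numbers were not taken to pair them. Over all genotypes they ran from -0.30 to 0.46, over 0.1 in 8 of 18 pairs, among which were all 3 of *lin-29* with *mab-10*. With the replicate number as a block, 1 gene was higher (2638) and 11 were lower (475) in *lin-29* mutants and 15 higher (1089) in *ddx-23* against *lin-29* mutants. Leaving out 1 library at a time gave 0 to 2 higher (1376 to 3605) and 2 to 20 lower (180 to 1157) in *lin-29* mutants, with medians from -0.22 to -0.067. In *mab-10* mutants it gave 0 higher (42 to 1865) and 0 to 1 lower (11 to 370), with medians from -0.026 to 0.012. In *ddx-23* mutants it gave 1 to 4 higher (515 to 1636) and 1 to 4 lower (69 to 380), with medians from 0.026 to 0.075. It gave 4 to 20 higher (541 to 1962) and 1 to 2 lower (1207 to 2778) in *ddx-23* against *lin-29* mutants. Against *mab-10* mutants it gave 0 to 6 higher (288 to 931) and 1 to 2 lower (89 to 1212) in *ddx-23* mutants. Small tri-snRNP differences in *ddx-23* mutants changed sign under scaling: to -0.0049 (*prp-3*), -0.0060 (*prp-4*), -0.045 (*prp-6*), -0.032 (*prp-8*) and -0.064 (*snrp-27*) under median-ratio scaling, and to -0.031 (*prp-4*), -0.051 (*prp-6*), -0.025 (*prp-8*), -0.0013 (*snrp-200*) and -0.029 (*snrp-27*) under quantile normalization. The cause of these shifts was not tested.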
